A study of Mus musculus with 19 samples.

Results

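The drug-metabolising enzyme genes examined here were the protein-coding genes of the cytochrome P450 (Cyp), UDP-glucuronosyltransferase (Ugt), sulfotransferase (Sult) and glutathione S-transferase (Gst) families. They were chosen by gene symbol among 21896 protein-coding genes with a position in RefSeq's annotation of GRCm38.p6, the assembly behind mm10. The choice gave 162 genes, of which 97 were Cyp, 22 Ugt, 21 Sult and 22 Gst. The choice leaves out Cyp7b1 and Cyp26c1, both of which have listed sites, and this lowers every count below by up to 2 genes.

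Liver DNA came from 19 mice aged 10 months: 6 Mat1a knockout (KO) mice given placebo, 5 Mat1a KO mice given S-adenosylmethionine (SAMe) and 8 wild-type (WT) mice without treatment, the treatment lasting 8 weeks per the series title. Mat1a encodes the enzyme that makes SAMe in the adult liver, and SAMe is the methyl donor of DNA methylation. No WT mice received placebo or SAMe, so genotype and treatment procedure cannot be told apart in the WT comparisons. Methylation was measured by reduced-representation bisulfite sequencing, which reads cytosines near MspI and TaqαI cut sites.

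The authors' deposited tables list the CpG sites that passed in 3 comparisons, each with a group difference in percentage points, a p-value and a q-value. Levels, coverage and values of single animals are not part of them, so the depth of each library is unknown and differences are given without an SD. Each listed difference exceeded 20 percentage points in size. A site that is missing from a table was either under the thresholds or not covered. The difference was read as KO minus WT, and as SAMe minus placebo among KO mice. The tables do not state this order, and every direction turns round together if it is wrong. At the 26 sites in all 3 tables the differences added up within 1e-08 percentage points, so the order is the same in each. The liver label cannot be checked against marker genes in such tables, and in whole liver a change in cell makeup and a change of methylation within cells cannot be told apart.

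Foreign compounds and many endogenous lipids are cleared by the liver in steps. P450 enzymes add or expose a polar group, and transferases then attach glucuronic acid, sulfate or glutathione so that bile or urine can carry the product away. Many of these genes arose by repeated duplication and lie side by side in arrays of near-identical copies. Short reads from such copies can be hard to place uniquely, and their coverage was not given in the tables. Methylation of CpG dinucleotides at gene starts is widely studied as a mark that accompanies silent genes.

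The promoter windows below show how much these genes differ in CpG content and in cut sites of the assay's enzymes. Which of these CpG were covered is not known. Gstm1 and Sult2a4 are shown because their listed sites lay closest to a gene start, Cyp3a11 as a major liver P450 with few CpG, and Gstp1 as a CpG-rich member without a listed site. Each is 1 RefSeq sequence of 300 bases (GRCm38.p6), 250 before and 50 after the start site, written 5′ to 3′ along the gene's own strand. Capitals mark CG dinucleotides.
Gstm1 (chr3:108017924-108018223, minus strand): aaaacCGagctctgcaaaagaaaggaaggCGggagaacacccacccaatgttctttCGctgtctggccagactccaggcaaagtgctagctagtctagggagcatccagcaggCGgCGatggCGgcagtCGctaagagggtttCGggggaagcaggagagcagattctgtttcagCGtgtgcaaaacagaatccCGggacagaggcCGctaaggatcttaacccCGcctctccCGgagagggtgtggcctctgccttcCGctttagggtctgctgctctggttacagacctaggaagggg
Sult2a4 (chr7:13989539-13989838, minus strand): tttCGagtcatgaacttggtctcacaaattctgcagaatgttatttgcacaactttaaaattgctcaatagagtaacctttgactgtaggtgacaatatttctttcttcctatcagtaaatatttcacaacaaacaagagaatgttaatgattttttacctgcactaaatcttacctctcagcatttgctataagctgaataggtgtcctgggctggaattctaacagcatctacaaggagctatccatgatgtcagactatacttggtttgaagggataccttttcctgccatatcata
Cyp3a11 (chr5:145879805-145880104, minus strand): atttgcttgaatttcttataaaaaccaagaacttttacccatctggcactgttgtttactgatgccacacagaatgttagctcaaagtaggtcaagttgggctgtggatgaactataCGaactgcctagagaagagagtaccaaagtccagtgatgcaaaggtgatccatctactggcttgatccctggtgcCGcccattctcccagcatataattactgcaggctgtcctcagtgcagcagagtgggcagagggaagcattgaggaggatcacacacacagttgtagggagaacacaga
Gstp1 (chr19:4037863-4038162, minus strand): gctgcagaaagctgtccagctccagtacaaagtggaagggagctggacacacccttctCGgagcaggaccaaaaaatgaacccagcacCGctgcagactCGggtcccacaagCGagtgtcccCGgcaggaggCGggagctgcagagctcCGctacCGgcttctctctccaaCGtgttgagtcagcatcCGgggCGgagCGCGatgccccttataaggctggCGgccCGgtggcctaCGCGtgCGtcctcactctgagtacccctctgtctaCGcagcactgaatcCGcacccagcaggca
The Gstm1 window held 14 CpG and 2 MspI sites (CCGG), and the Gstp1 window 20 CpG and 4 MspI sites. The Sult2a4 window held 1 CpG, which lies in a TaqαI site (TCGA), and the Cyp3a11 window 2 CpG and neither enzyme site.

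The first comparison asked how liver methylation in placebo-treated KO mice differed from that in WT mice. In or within 2 kb of the enzyme genes, 5 of 162 genes (3.09%) had a site in the authors' deposited table, against 2744 of 21896 coding genes (12.5%). Each of the 5 genes had 1 site, and all 5 sites were lower in KO liver. No enzyme gene had a higher site, but neither did most coding genes, of which 0.0776% had one. The listed sites came to 1.13 per Mb over the enzyme genes and their flanks, against 4.55 per Mb over all coding genes.

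In the second comparison, of SAMe-treated KO mice with WT mice, 4 of 162 enzyme genes (2.47%) had a site in the authors' deposited table, against 10.8% of coding genes. Again each gene had 1 site and each site was lower in KO liver, where 0.0913% of coding genes had a higher one. The density was 0.901 sites per Mb over the enzyme genes and 3.75 per Mb over coding genes. The WT animals enter both comparisons. Between them, 6 of 162 enzyme genes had a site in either table, beside 14.8% of coding genes, and 3 had one in both, beside 8.49%. The remaining 156 had none in any table. The differences between the enzyme genes' shares and those of all coding genes were not tested.

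The third comparison asked what SAMe changed among KO mice. None of the 162 enzyme genes had a site in the authors' deposited table, which lists sites in or near 0.658% of coding genes (lower with SAMe in 0.274%, higher in 0.384%). A count of 0 allows a share of up to 1.85%, so a share like that of all coding genes could not have been told from none. That limit covers counting error only.

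**Figure D1:**
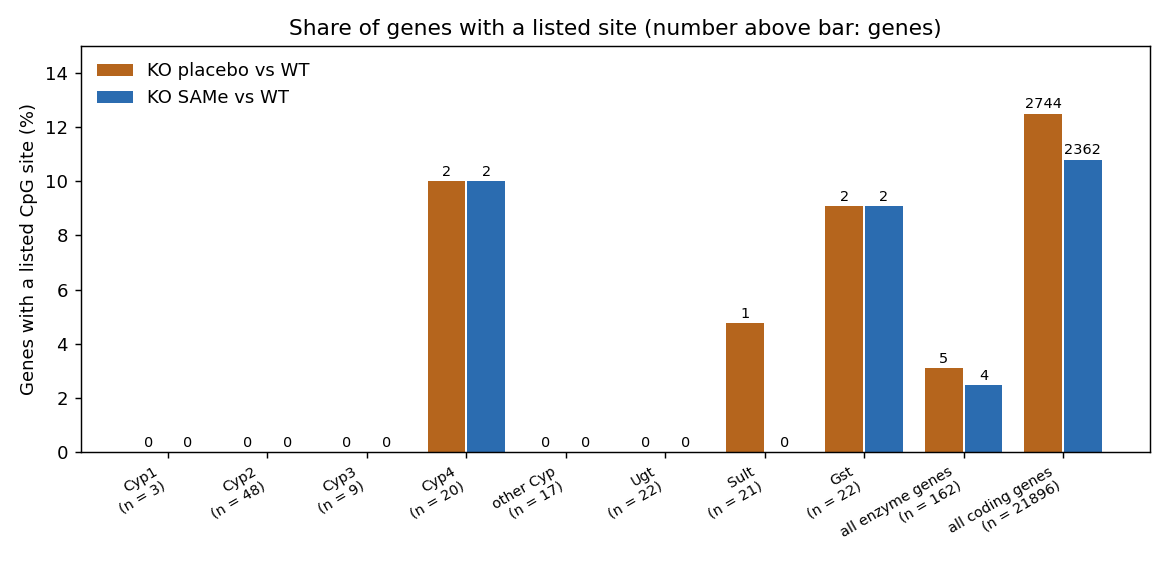
Bars give the percentage of genes with a listed CpG site inside the gene or within 2 kb, for placebo-treated KO against WT (brown) and SAMe-treated KO against WT (blue), by enzyme class, for all 162 enzyme genes and for all 21896 coding genes; numbers above the bars count genes. Cyp4 genes reached 10.0% in both comparisons, and Cyp1, Cyp2, Cyp3, the other Cyp and Ugt genes were at 0. Cyp7b1 and Cyp26c1, which have listed sites and would count among the other Cyp, were left out by the choice of genes.

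Among the 97 Cyp genes examined, those with a site all belonged to Cyp4, a family that hydroxylates fatty acids, eicosanoids and related lipids. Cyp7b1 and Cyp26c1, left out by the choice of members, also had sites and are described below. Of 20 Cyp4 genes, 2 (10.0%) had a site in each WT comparison, beside 12.5% of coding genes in placebo-treated KO and 10.8% in SAMe-treated KO, and 3 had one in either, beside 14.8%. These shares are near those of all coding genes. All 3 were Cyp4f genes, whose mouse products act on leukotrienes and other long-chain lipids. They lie in an array of 8 genes on chromosome 17.

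Cyp4f14 (chromosome 17, 32903357 to 32917376, mm10) had a site inside the gene at position 32907704, 9652 bp downstream of its start. Its methylation difference in the authors' deposited table was −26.3 percentage points in placebo-treated KO against WT and −31.9 in SAMe-treated KO against WT, both with a q-value listed as 0. The site was thus lower than WT in both KO groups. By subtraction, the SAMe minus placebo difference was −5.62 percentage points, and the site was not listed in the authors' deposited table for that pair.

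Cyp4f40 (chromosome 17, 32658886 to 32676919) had a site at position 32676523, inside the gene near its far end, 17637 bp from the start. It stood at −30.2 percentage points in placebo-treated KO against WT (q = 1.09e-08) in the authors' deposited table. This was the largest difference of the 5 enzyme sites in that table, in which 30.2% of all listed sites differed by more. The site was not listed for SAMe-treated KO against WT.

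Cyp4f16 (chromosome 17, 32536545 to 32551798) had a site 1824 bp outside the gene, upstream, at position 32534721. The authors' deposited table gave −24.9 percentage points in SAMe-treated KO against WT (q = 6.83e-09). It was not listed for placebo-treated KO against WT. Cyp4f16 and Cyp4f40 were each in 1 WT table, and neither was listed between the KO groups, so a difference between placebo-treated and SAMe-treated KO mice was not shown for either.

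Of the 22 Gst genes, 2 (9.09%) had a site in each WT comparison, beside 12.5% and 10.8% of coding genes. That share is near those of all coding genes. Both genes were among the 7 Gstm (mu class) genes, which form an array on chromosome 3. Their enzymes join glutathione to electrophiles. Gstm1 (108012250 to 108017973) had a site at position 108018549, 576 bp upstream of the start and beyond the promoter window shown above. The authors' deposited table gave −24.1 percentage points in placebo-treated KO against WT (q = 2.63e-14) and −21.1 in SAMe-treated KO against WT (q = 3.16e-10). SAMe-treated KO was by subtraction 3.01 percentage points above placebo-treated KO.

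Gstm6 (chromosome 3, 107938847 to 107953641) had a site inside the gene at position 107945695, 7771 bp downstream of its outermost listed start. The authors' deposited table gave −21.4 percentage points in placebo-treated KO against WT and −21.6 in SAMe-treated KO against WT, each with a q-value listed as 0. By subtraction, the SAMe minus placebo difference at this site was −0.214 percentage points. Both Gstm6 differences, and the Gstm1 difference in SAMe-treated KO against WT, were close to the listing threshold of 20.

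Among the 21 Sult genes, 1 (4.76%) had a site in placebo-treated KO against WT, beside 12.5% of coding genes. It was Sult2a4, a hydroxysteroid sulfotransferase gene (chromosome 7, 13909677 to 13989591), which had the only Sult site. It lay at position 13989888, 300 bp upstream of the start and beyond the promoter window shown above. The authors' deposited table gave −20.5 percentage points in placebo-treated KO against WT (q = 0.00163), and no listing for SAMe-treated KO against WT. In the authors' deposited table for placebo-treated KO, 94.2% of listed sites differed by more than this one. Over the enzyme sites the median difference in the authors' deposited tables was −24.1 percentage points in placebo-treated KO and −23.2 in SAMe-treated KO, beside −25.9 and −26.6 over all listed sites.

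**Figure D2:**
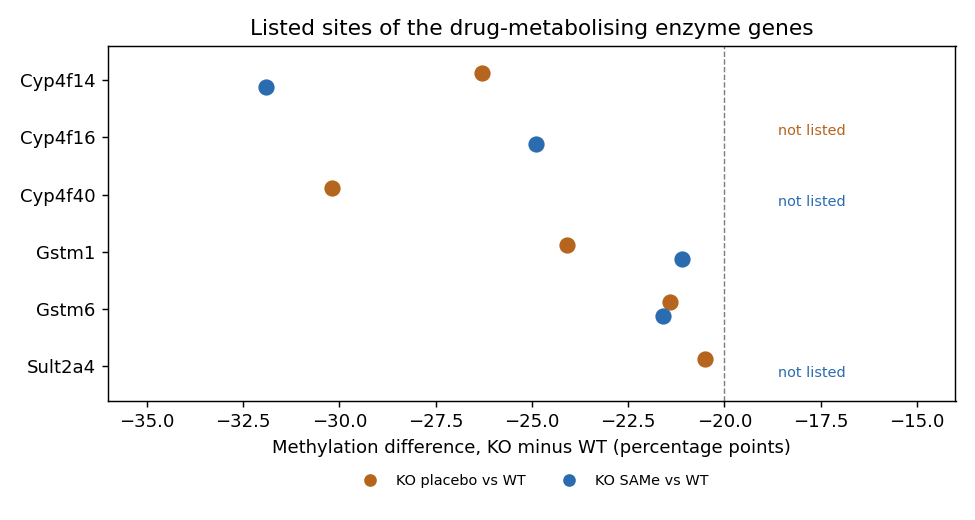
The 6 enzyme genes with a listed site, with the methylation difference of that site in percentage points on the horizontal axis, as KO minus WT, for placebo-treated KO (brown) and SAMe-treated KO (blue) in the authors' deposited tables; the dashed line marks the listing threshold of −20 and "not listed" stands where a table lacks the site. Cyp4f14 (−26.3 and −31.9), Gstm1 (−24.1 and −21.1) and Gstm6 (−21.4 and −21.6) were listed in both.

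The 3 tables list a site in or within 2 kb of 12.5%, 10.8% and 0.658% of coding genes. Of the classes best known for oxidising drugs, none had a site inside a gene or within 2 kb in any of them. This covers the 3 Cyp1 genes, with Cyp1a2, which oxidises caffeine and aromatic amines; the 48 Cyp2 genes, with Cyp2e1, which oxidises ethanol and acetaminophen; and the 9 Cyp3 genes, with Cyp3a11, a major drug-oxidising enzyme of mouse liver. The nearest site to Cyp1a2 was 45.9 kb away and that to Cyp2e1 62.7 kb away, in both WT comparisons. For all coding genes the median distance was 126 kb in placebo-treated KO against WT and 158 kb in SAMe-treated KO against WT, and for the enzyme genes 173 kb and 280 kb. Cyp3a11 had a site 2671 bp past its far end (position 145851936), at −27.9 percentage points in placebo-treated KO against WT (q = 5.1e-10) in the authors' deposited table. This is just outside the 2 kb limit.

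The class of other Cyp genes, which mostly serve steroids, bile acids, vitamins and retinoids, would include Cyp7b1 and Cyp26c1. Both of those had sites but were left out by the choice of members. Of coding genes, 12.5% had a site in placebo-treated KO against WT and 10.8% in SAMe-treated KO against WT. The 17 other Cyp genes that were kept had no site, a count that depends on that choice. Among them are Cyp7a1, the rate-limiting enzyme of bile acid synthesis, with its nearest site 2710 kb away in placebo-treated KO against WT and 2470 kb away in SAMe-treated KO against WT, and Cyp8b1, which sets the share of cholic acid, with its nearest 106 kb away in both. Cyp27a1, which starts the alternative bile acid route, had its nearest site 323 kb away in placebo-treated KO against WT and 210 kb away in SAMe-treated KO against WT. The retinoic acid hydroxylase gene Cyp26a1 lies next to Cyp26c1 on chromosome 19 and had its nearest site 4346 bp away (position 37693392), at −27.3 in placebo-treated KO against WT and −34.0 in SAMe-treated KO against WT in the authors' deposited tables.

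Both genes left out by the choice of members had a site in at least 1 WT comparison. Cyp26c1, another retinoic acid hydroxylase, had 11 sites in placebo-treated KO against WT and 12 in SAMe-treated KO against WT. The largest differences were −34.9 (position 37693209) and −38.5 percentage points (position 37693010) in the authors' deposited tables. Cyp7b1, an oxysterol hydroxylase, had 1 site at −27.7 in placebo-treated KO against WT in the authors' deposited table and none in SAMe-treated KO. With both genes counted, 7 of 164 genes (4.27%) had a site in placebo-treated KO and 5 of 164 (3.05%) in SAMe-treated KO.

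None of the 22 Ugt genes had a site, among them Ugt1a1, which conjugates bilirubin. Of coding genes, 12.5% had one in placebo-treated KO against WT and 10.8% in SAMe-treated KO against WT. The 9 Ugt1a genes share their last exons in a span of 169 kb on chromosome 1, which held no listed site in either WT comparison. The 10 Ugt2 genes span 605 kb of chromosome 5, again without a site. Among Gst genes outside the mu class, Gsta3 had a site 2118 bp away (position 21238447) at −26.0 in placebo-treated KO against WT (q = 1.36e-07) in the authors' deposited table, and Gstp1 had its nearest 58.8 kb away in both.

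Sites were also counted over the arrays as wholes. Genes of a family no more than 250 kb apart were taken as 1 locus, which gave 57 loci, of which 16 held at least 3 genes. These 16 arrays held 115 of the 162 genes over 7.2 Mb, with 7 sites in placebo-treated KO against WT and 6 in SAMe-treated KO against WT (0.972 and 0.833 per Mb). The spans include sequence between genes. Like spans elsewhere were not counted, so the array values have no background beside them. In 10 arrays, with 76 genes, no site was listed in either. The longest of these, the 14 Cyp2c genes from Cyp2c55 to Cyp2c70 on chromosome 19, spans 1180 kb.

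Some sites lay within the arrays but over 2 kb from any coding gene. The Gstm array had 1 more site, 3002 bp from Gstm3 (position 107960694), at −23.4 in SAMe-treated KO against WT (q = 2.36e-13) in the authors' deposited table. The array of 5 genes from Cyp2s1 to Cyp2a4 on chromosome 7 had 1 at position 25860133. That site stood at −23.8 in placebo-treated KO against WT in the authors' deposited table. In that comparison it was the nearest site to Cyp2b10, the P450 gene best known for induction by phenobarbital, 37.5 kb away. In SAMe-treated KO against WT the nearest site to Cyp2b10 was 192 kb away.

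A site in the Gsta array of chromosome 9 (position 78318521, 12.5 kb from Gsta2) was the nearest to any enzyme gene in the third comparison. It was lower in SAMe-treated KO than in placebo-treated KO by a difference of −21.4 percentage points (q = 0.00187) in the authors' deposited table. It also stood at −23.9 in SAMe-treated KO against WT (q = 5.54e-07) in the authors' deposited table, and was not listed for placebo-treated KO against WT. The SAMe-treated animals enter both of those tables.

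**Figure D3:**
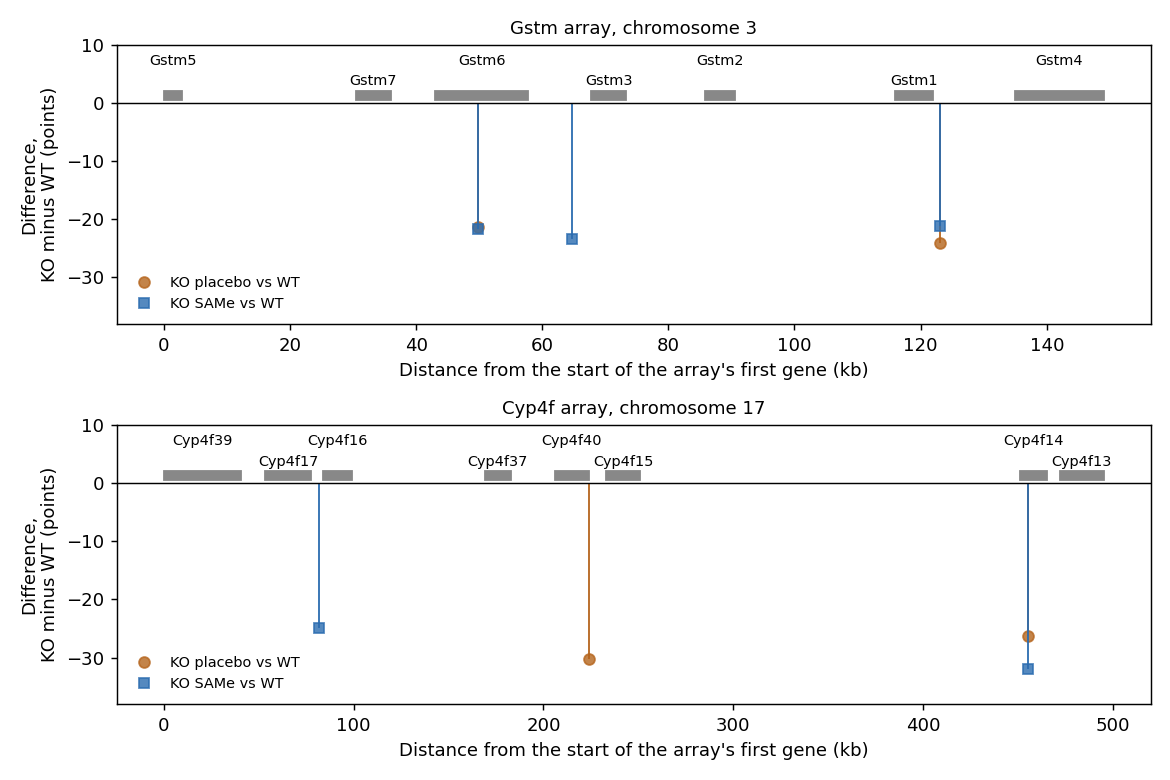
Grey boxes are the genes of the Gstm array (top) and the Cyp4f array (bottom), placed by distance in kb from the start of the first gene; stems give the methylation difference in percentage points, as KO minus WT, at each listed site for placebo-treated KO (brown circles) and SAMe-treated KO (blue squares) in the authors' deposited tables. Gstm6, Gstm1 and Cyp4f14 carry both marks, and the largest difference drawn is −31.9 at Cyp4f14.

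The enzyme genes had a median length of 20576 bp, against 17149 bp for all coding genes, but long genes were fewer. Genes of 50 kb or more made up 11.1% of enzyme genes and 22.7% of other coding genes. In that band 1 of 18 enzyme genes had a site in placebo-treated KO against WT and 0 in SAMe-treated KO against WT, beside 22.6% and 18.6% of other coding genes. Under 5 kb, 0 of 17 enzyme genes had a site in either, beside 4.31% and 3.66%. Among genes of 20 to 50 kb, 0 of 64 enzyme genes had a site in either WT comparison, against 13.5% of 5030 other coding genes in placebo-treated KO and 12% in SAMe-treated KO. Of enzyme genes of 5 to 20 kb, 4 of 63 (6.35%) had a site in each WT comparison, against 10.8% and 9.69% of other coding genes.

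Promoter CpG content differed more. RefSeq promoters were matched for 133 enzyme genes (82.1%) and for 17491 of the 21386 coding genes outside chromosome 18 (81.8%). No enzyme gene lies on chromosome 18. The enzyme genes' windows had a median of 2 CpG (quartiles 1 and 5), against 13 (quartiles 4 and 24) in other coding genes. An MspI site (CCGG, the same on both strands) was present in 28.6% of enzyme gene windows and 62.1% of the others, a TaqαI site (TCGA, the same on both strands; the motifs cannot overlap) in 14.3% and 24.0%, and either in 38.3% and 68.4%. The Sult windows had a median of 1 CpG, the Ugt windows 2 and the Gst windows 7. No median is given for Cyp genes, of which 76 of 97 were matched, fewer than the 80% set as the minimum for a median.

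Among other coding genes the share with a listed site was higher in each band of higher promoter CpG count in both WT comparisons. Windows with 0 to 4 CpG made up 73.7% of the enzyme genes and 28.8% of other coding genes. Within them, 4 of 98 enzyme genes (4.08%) had a site in placebo-treated KO against WT, beside 227 of 4999 other coding genes (4.54%). In SAMe-treated KO against WT it was 3 of 98 (3.06%), beside 3.40%. Where the window had 5 or more CpG, 1 of 35 enzyme genes (2.86%) had a site in each WT comparison, beside 15.2% and 13.1% of other coding genes. That 1 gene was Gstm1. The members without a site in these CpG-richer windows include Gstp1, Cyp51, the sterol demethylase of cholesterol synthesis, with 28 CpG, and Ugt8a, the galactosyltransferase of myelin lipids, with 40. The 29 enzyme genes without a matched promoter had no site in either WT comparison, beside 12.5% and 10.8% of all coding genes. The share among coding genes without a matched promoter was not worked out.

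**Figure D4:**
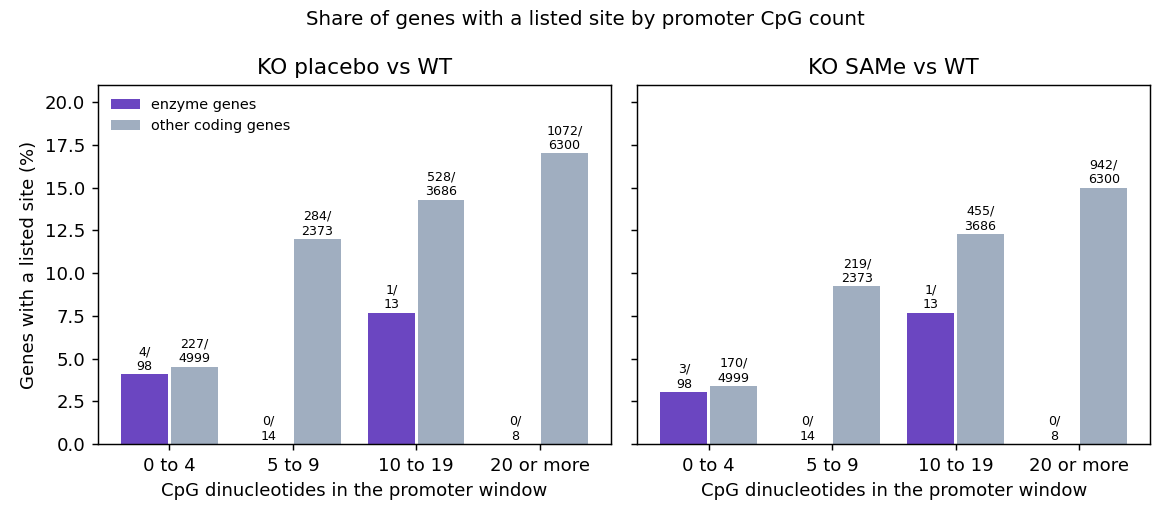
Percentage of genes with a listed CpG site, by the number of CpG dinucleotides in the 300-base promoter window, for enzyme genes (violet) and other coding genes (grey), in placebo-treated KO against WT (left) and SAMe-treated KO against WT (right); labels give genes with a site over genes in the group. In windows with 0 to 4 CpG the shares were 4.08% and 4.54% on the left and 3.06% and 3.40% on the right.

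Receptors, electron donors and donor supply genes, other phase I and II enzymes and drug transporters were counted in 5 lists of 97 genes in all. A site was listed in 16 of them (16.5%) in placebo-treated KO against WT, beside 12.5% of coding genes, in 14 (14.4%) in SAMe-treated KO against WT, beside 10.8%, and in 0 between the KO groups, beside 0.658%. Every site of these genes was lower in KO liver.

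Of 20 xenobiotic receptors and their partners, 5 had a site in placebo-treated KO against WT, beside 12.5% of coding genes. In SAMe-treated KO against WT, 4 of them had a site, beside 10.8% of coding genes. Nr1i2, the pregnane X receptor that induces Cyp3a genes, stood at −26.4 in placebo-treated KO and −32.2 in SAMe-treated KO (position 38272862 of chromosome 16) in the authors' deposited tables. Its partner Rxra stood at −29.1 in placebo-treated KO and −36.2 in SAMe-treated KO in the authors' deposited tables.

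The 8 electron donor genes of P450 enzymes, with the reductase gene Por, had no listed site in any table. Of 14 genes for donor supply, 3 (21.4%) had a site in each WT comparison, beside 12.5% and 10.8% of coding genes. These were Slc35b2, which carries the sulfate donor PAPS into the Golgi, Papss1, which makes PAPS, and Gsr, which regenerates glutathione. In placebo-treated KO against WT they stood at −34.2, −22.0 and −22.4 percentage points in the authors' deposited table. In SAMe-treated KO against WT they stood at −33.4, −20.3 and −22.8 in the authors' deposited table. The Slc35b2 site also lay within 2 kb of Hsp90ab1.

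Other phase I and II enzymes had a site in 5 of 38 genes (13.2%) in each WT comparison, beside 12.5% and 10.8% of coding genes. Aldh2, which clears acetaldehyde, had 6 sites in placebo-treated KO, down to −43.0, and 7 in SAMe-treated KO, down to −35.2, in the authors' deposited tables. Among those in SAMe-treated KO, positions 121578317 and 121578318 are the plus and minus strands of the same CpG. The −43.0 site (position 121567213) was not listed for SAMe-treated KO. The −35.2 site (position 121590263) stood at −28.9 in placebo-treated KO. The aldehyde oxidase gene Aox1 stood at −28.7 in placebo-treated KO and −28.8 in SAMe-treated KO in the authors' deposited tables. Aldh1a1, which oxidises retinaldehyde, stood at −27.9 in placebo-treated KO and −22.7 in SAMe-treated KO in the authors' deposited tables. Of 17 drug transporters, 3 (17.6%) had a site in placebo-treated KO and 2 (11.8%) in SAMe-treated KO, beside 12.5% and 10.8% of coding genes. The efflux pump gene Abcc4 had 5 sites in placebo-treated KO, down to −60.3, and 1 in SAMe-treated KO at −43.9, in the authors' deposited tables. It lies on chromosome 14, which also carries Mat1a. Whether its place on that chromosome bears on these differences was not tested. Abcc3, another efflux pump, stood at −33.1 in placebo-treated KO, and the uptake carrier Slco2b1 at −22.9 in placebo-treated KO and −28.4 in SAMe-treated KO, in the authors' deposited tables.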

How the data were processed

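Reduced-representation bisulfite sequencing of liver DNA was analysed from the authors' tables of group comparisons. Per the submitters' processing notes, CASAVA 1.8.2, Trim Galore, Bismark and methylKit were used with the build mm10, their order and settings being left out there. The p-values and q-values and the methylation differences in percentage points were deposited by the authors, per the file headers. For the test behind them and the coverage minimum, nothing is given in the sources used here. The largest q-value in the deposited tables was 0.0495. Depth per sample is unknown and limits the precision to an extent that cannot be stated.

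With Python 3.11.15 and pandas 2.3.3, sites were assigned to coding genes when they lay inside or up to 2 kb beyond an end. A site near 2 genes counts for both genes and once as a site. The strands of a CpG are listed apart, and each listed strand counts as a site. The assignment was tested on simulated data. Start sites and CpG counts came from the RefSeq promoter closest to the gene's outer 5′ end. All 97 listed sites inside a promoter window fell on a cytosine of the listed strand, so positions count from 1 and match GRCm38.p6. No test of its own was run, since no animal has a value. The members, gene lists, arrays and bands were chosen with earlier results of these data known. Every member with a site was named. From each list, the 3 genes with the largest difference were named, apart from 1 that is not reported here. Members without a site were named for their known role or CpG content after their values were seen. Other window sizes and thresholds were tried.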

Additional observations from a re-analysis of the deposited data

How the results depend on the processing

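Thresholds decide small counts here. For placebo-treated KO against WT, the 5 enzyme genes became 3 inside the gene only, 9 within 5 kb, 11 within 10 kb, 2 at differences of at least 25 percentage points and 1 at 30. The coding gene shares beside these were 10.8%, 14.6%, 17.7%, 7.83% and 4.80%, and the enzyme gene shares were 1.85%, 5.56%, 6.79%, 1.23% and 0.617%. The 5 sites became 3 inside the gene, 19 within 5 kb, 2 at 25 and 1 at 30. For SAMe-treated KO against WT, the 4 genes became 2 inside the gene, 7 within 5 kb, 7 within 10 kb, 1 at 25 and 1 at 30, beside coding gene shares of 9.23%, 12.5%, 15.1%, 7.13% and 4.50%. The 4 sites became 2, 17 within 5 kb, 1 and 1. Of the sites within 5 kb, 11 of 19 in placebo-treated KO and 12 of 17 in SAMe-treated KO were sites of Cyp26c1 that lie within 5 kb of Cyp26a1. With Cyp7b1 and Cyp26c1, an alternative added after the data were seen, sites numbered 17 in placebo-treated KO and 16 in SAMe-treated KO. The enzyme gene share was below that of coding genes under each of these settings in both WT comparisons. Stricter q-values, joined sites and a background without predicted genes left counts within 1.5 times. Between the KO groups the count was 0 under every alternative run.

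Leaving out an animal and changing the coverage minimum were not run, as the tables hold no value per animal and no coverage. No paired analysis was possible because the result comes from no test and no value per animal is listed.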

Other observations

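The annotation also holds 37 pseudogenes and 1 non-coding RNA whose symbols follow the same pattern. Of these, Cyp2d67-ps on chromosome 15 had 2 sites in placebo-treated KO against WT, at −24.9 (position 81969160) and −28.7 (position 81969169) in the authors' deposited table. The first of them stood at −26.1 in SAMe-treated KO against WT in the authors' deposited table. Cyp2c53-ps on chromosome 19 had 1 site lower in SAMe-treated KO than in placebo-treated KO (−23.8, q = 0.015, position 39249056) in the authors' deposited table. It lies within the Cyp2c array, 38 kb from Cyp2c29, and was not listed in either WT comparison.

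Gene groups were also formed by the letters that open a symbol, a grouping made after the data were seen. Of the 24 groups with at least 50 coding genes, Cyp (99 genes with Cyp7b1 and Cyp26c1) had the fifth lowest share with a site in each WT comparison, 4.04% in placebo-treated KO and 3.03% in SAMe-treated KO. The 4 groups below it were the olfactory receptor (Olfr), keratin-associated (Krtap), vomeronasal receptor (Vmn) and predicted (Gm) genes, at 0.0%, 0.0%, 0.563% and 1.73% in placebo-treated KO. Of these 24 groups, the solute carrier (Slc) genes had the highest share in placebo-treated KO, 75 of 375. No test was made between these groups.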
